A study of Mus musculus with 16 samples.

Results

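The genes described here are 10 genes that handle high-energy phosphate and reducing equivalents in muscle, chosen by their symbols from a table of 14538 genes: Ucp2, Ucp3, Gpd1, Gpd2, Ckm, Ckmt2, Ckb, Slc25a4, Slc25a5 and Slc6a8. All 10 had a row, and all 10 were among the 11841 genes that reached a mean of 10 normalised counts over the 16 libraries and were tested. RNA was sequenced from the tibialis anterior, a mostly fast-twitch hindlimb muscle, with 1 library per mouse. The design asks how treatment with recombinant GDF15, a circulating factor that lowers food intake, compares with vehicle and with a food intake lowered to the same amount. All mice were wild-type male C57BL/6 mice that were switched at 8 weeks of age to a NASH diet, which produces fatty liver disease, and to housing at 29 °C. The vehicle group (n = 5) received injections without GDF15. The GDF15 group (n = 6) received 1 subcutaneous injection a day. The labels name 3 doses, 0.3, 1 and 5 nmol of GDF15 per kg of body weight. They do not say which of them these mice received, or for how long. The pair-fed group (n = 5) was given each day the food that GDF15-treated mice had eaten on the day before, so that GDF15 against pair-fed mice compares animals of matched intake, and pair-fed against vehicle mice compares a low with a free intake.

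Creatine kinases pass the phosphate of ATP to creatine and back, so that phosphocreatine buffers ATP where it is used and links the mitochondrion to the myofibril. The adenine nucleotide translocases exchange ATP for ADP across the inner mitochondrial membrane, and the uncoupling proteins are carriers of the same family, of which Ucp3 is known mainly from skeletal muscle. In the glycerophosphate shuttle, a cytosolic and a mitochondrial glycerol-3-phosphate dehydrogenase carry the electrons of cytosolic NADH to the respiratory chain, and fast glycolytic muscle is known for a high activity of the first.

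All 8 skeletal muscle markers (Acta1, Myh4, Ttn, Des, Mb, Tnnt3, Mylpf and Pvalb) were detected in every library, and together they summed to at least 1631065 normalised counts, or 12.8% of the counts, in every library. The approximate depth was 9486310 to 15039282 reads per library, with group medians of 13888125 for vehicle, 12131446 for GDF15 and 14288379 for pair-fed mice. In 3 libraries Myh7, the slow myosin heavy chain, stood apart, with 1094 normalised counts in GDF15-treated mouse 1, 746 in pair-fed mouse 3 and 481 in pair-fed mouse 6, against at most 112 in the other 13 libraries. The calls of the 10 genes are therefore also given without these 3 libraries. Of the 18 calls of other genes named below, 17 passed without them as well, all except that of Ptprc, and 13 calls of list and marker genes that all 16 libraries did not give were gained, 7 for GDF15 against pair-fed mice (among them Ttn, Myh1, Vwf, Mbp, Pmp22 and Cnn1) and 6 for pair-fed against vehicle mice (among them Gatm, Ldhb, Hadha, Ttn and Mbp). In RNA from a whole muscle, fewer cells of a type and less RNA per cell cannot be told apart.

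The stretches upstream of the 3 genes that passed the test in a comparison, Gpd2, Ckm and Ckmt2, are shown. They are RefSeq promoter windows (GRCm38.p6) of at most 250 bases before an annotated start, without bases that lie in an exon of the gene, written 5′ to 3′ on the strand of the gene, with the E-box CAGCTG, the core bound by myogenic factors, in capitals.
Gpd2, chr2:57237428-57237634, plus strand: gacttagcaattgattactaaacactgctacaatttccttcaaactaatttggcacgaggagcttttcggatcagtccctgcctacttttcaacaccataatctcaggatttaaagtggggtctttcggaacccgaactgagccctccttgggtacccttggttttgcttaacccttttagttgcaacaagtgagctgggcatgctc
Ckm, chr7:19410844-19411024, plus strand: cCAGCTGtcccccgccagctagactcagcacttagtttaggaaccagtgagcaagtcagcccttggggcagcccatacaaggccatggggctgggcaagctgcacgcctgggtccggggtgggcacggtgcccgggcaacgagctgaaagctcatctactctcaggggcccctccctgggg
Ckmt2, chr13:91876886-91877135, minus strand: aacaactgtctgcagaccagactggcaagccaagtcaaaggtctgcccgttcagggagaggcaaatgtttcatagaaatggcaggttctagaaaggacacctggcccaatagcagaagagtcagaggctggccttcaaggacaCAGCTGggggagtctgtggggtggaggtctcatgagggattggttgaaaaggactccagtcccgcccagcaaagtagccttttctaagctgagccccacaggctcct
CAGCTG was present 249 bases before the start in the Ckm window and 107 bases before it in the Ckmt2 window, and the same letters were not in the Gpd2 windows. A link between this match and the levels of these genes was not tested.

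Of the 10 genes, 8 matched a RefSeq window, in 9 windows since Gpd2 has 2 annotated starts, and Gpd1 and Slc6a8 had no entry. Each 250-base window was searched on both strands for 4 motifs. CAGCTG was in 4 of the 9 windows, those of Ckm, Ckmt2, Ucp2 and Ucp3, and in 13% of all 32851 windows of this length. AGGTCA, the core of the sites of many nuclear receptors, was in the Ucp3 window only, at 149 and at 44 bases before the start, and in 14% of all windows. The second of these overlaps the CAGCTG of the same window, which lies 40 bases before the start. TGACG, the core of cAMP response elements, was in the Ucp2 window only, 62 bases before the start, and in 17.8% of all windows. A match to the loose pattern used for MEF2 sites, CTATAAATAG, was in the Ckb window only, 29 bases before the start. Such matches were in 2.92% of all windows, and whether MEF2 binds this one was not tested.

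The 10 genes differed in level by over 3 orders of magnitude, with the muscle isoform of each family far above its partner. Per kilobase of the longest coding transcript, and averaged over the 16 libraries, Ckm had 112056 ± 6690.0 normalised counts (SD, n = 16), the highest value of the 10. It was the gene with rank 4 in the whole table by mean count and took 2.39% of all counts. Slc25a4, the translocase of heart and skeletal muscle, had 29037 per kilobase, and Ckmt2, the mitochondrial creatine kinase of muscle, had 11113. Gpd1 followed with 3649 per kilobase and Ucp3 with 1035. Gpd2, with 627 per kilobase, and Slc6a8, with 604, lay close together. Slc25a5, the translocase of many other tissues, had 313 per kilobase. Ckb, the creatine kinase of brain, and Ucp2, the uncoupling protein of many tissues, were lowest, with 58.8 and 32.7 per kilobase. The library values of neighbours in this order overlapped for Ucp3 and Gpd2, for Gpd2 and Slc6a8, and for Ckb and Ucp2, and did not overlap for the other 6 pairs of neighbours. With the length of the coding sequence in place of the transcript, an alternative chosen after seeing the data, Ucp2 (141 per kilobase) stood above Ckb (75.8) and the order was otherwise the same.

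**Figure D1:**
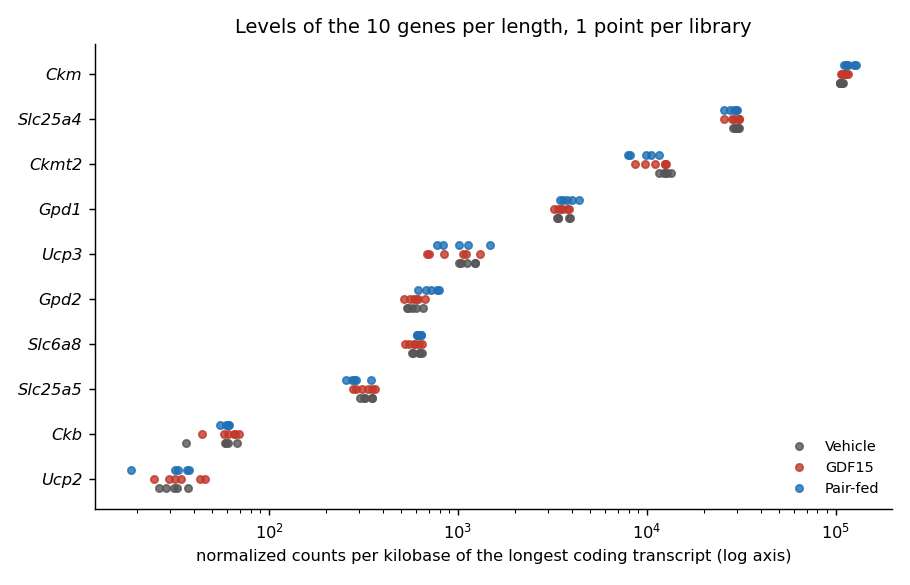
Normalised counts per kilobase of the longest coding transcript on a log axis for the 10 genes, with 1 point per library coloured by group. Ckm, Slc25a4 and Ckmt2 lead with 112056, 29037 and 11113 on average, and Ckb and Ucp2 lie lowest with 58.8 and 32.7.

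Differences between groups were small beside these differences between genes, and each of the 4 calls involved the pair-fed group. Between pair-fed and vehicle mice 3 of the 10 genes passed an adjusted p-value of 0.1 with limma where 6.37% of all tested genes did. These were Gpd2 and Ckm, higher in pair-fed mice like 3.2% of all tested genes, and Ckmt2, lower like 3.17% of them. Values of the groups did not overlap for 1 of the 10, Ckm, against 5.44% of all tested genes in either direction and 2.79% with the pair-fed mice higher. For GDF15 against pair-fed mice 1 of 10 passed, where 2.17% of all tested genes did. This was Gpd2, lower with GDF15 like 1.24% of all tested genes, and the groups overlapped for all 10, while they were apart for 1.77% of all genes. Between GDF15-treated and vehicle mice 0 of 10 passed with limma, and 0 of 10 had an unadjusted p-value under 0.05, where 0.769% of all tested genes passed and 11% had such an unadjusted p-value. These groups overlapped for all 10 genes, while they were apart for 1.65% of all tested genes. Over the 10 genes the median size of the log2 fold change was 0.12 for pair-fed against vehicle mice, 0.12 for GDF15 against pair-fed mice and 0.059 for GDF15 against vehicle mice. Over all tested genes these medians were 0.12, 0.097 and 0.087. At an adjusted p-value of 0.05, 1 of the 4 calls was past the threshold, that of Gpd2 for pair-fed against vehicle mice. None of the 10 reached a log2 fold change of 0.6 in size, the second threshold of the study for this muscle, in any of the 3 comparisons, and the largest was 0.39, for Ckmt2 between pair-fed and vehicle mice. Of all tested genes, 0.819% passed both thresholds for pair-fed against vehicle mice, 0.279% for GDF15 against pair-fed mice and 0.304% for GDF15 against vehicle mice. The comparisons share mice, since each group enters 2 of them, so that a high or low group moves both.

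**Figure D2:**
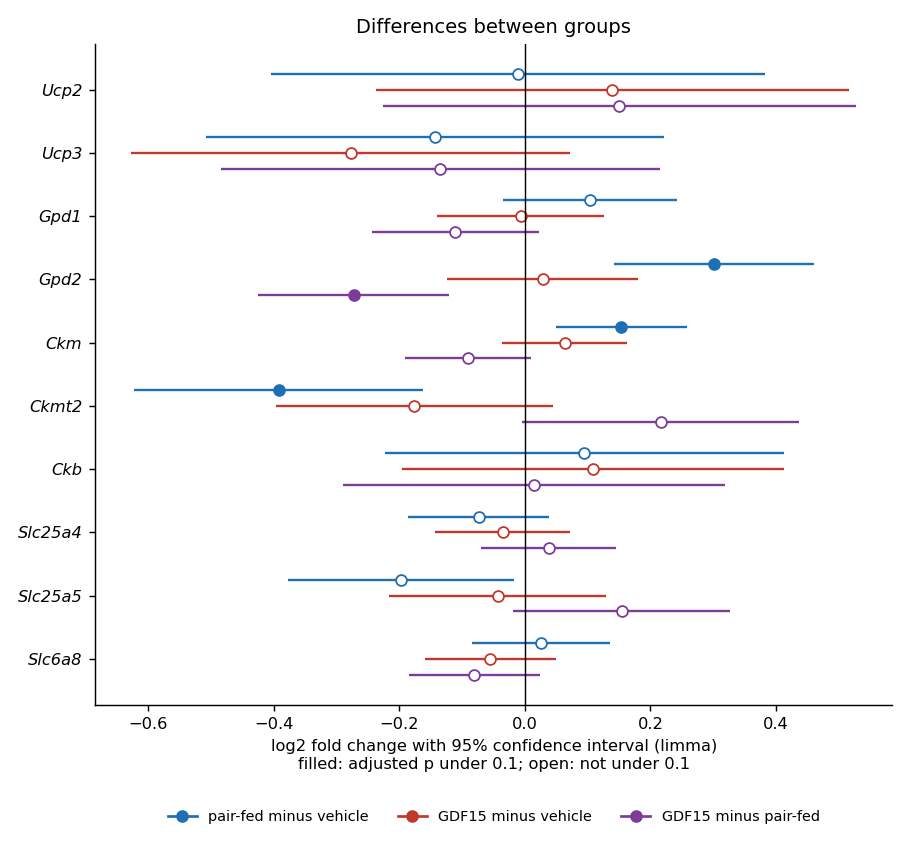
Log2 fold changes of the 10 genes from limma for the 3 comparisons, with 95% confidence intervals as lines, filled points for an adjusted p-value under 0.1 and open points otherwise. The 4 filled points are Gpd2 at 0.30, Ckm at 0.15 and Ckmt2 at -0.39 for pair-fed minus vehicle, and Gpd2 at -0.27 for GDF15 minus pair-fed.

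Of the glycerophosphate shuttle, RNA of the mitochondrial enzyme was higher in pair-fed mice than in both other groups. That of the cytosolic enzyme did not pass the test in any comparison. Gpd2 (ENSMUSG00000026827.12, chr2:57237635-57370719, plus strand, GRCm38) encodes the dehydrogenase of the inner mitochondrial membrane, which passes electrons to ubiquinone. Its normalised counts were 3744, 3280.0, 3088, 3124 and 3453 in vehicle mice 1 to 5. In pair-fed mice 2 to 6 they were 4586, 3532, 3907, 4436 and 4142. Each of the 5 pair-fed mice lay above the vehicle median, and 4 of them above every vehicle mouse, with pair-fed mouse 3 below vehicle mouse 1. In GDF15-treated mice Gpd2 ran from 2968 over a median of 3418 to 3873, within or near the range of the vehicle mice. All 6 GDF15-treated mice lay below the pair-fed median, and 4 of them below every pair-fed mouse. Gpd2 therefore rose by 0.30 on the log2 scale in pair-fed against vehicle mice (standard error 0.076, adjusted p = 0.0363 from limma), or 1.23-fold with a 95% confidence interval of 1.10 to 1.38. It fell by 0.27 on the log2 scale with GDF15 when pair-fed mice were the reference (adjusted p = 0.0821 from limma, standard error 0.072), or 0.828-fold with an interval of 0.745 to 0.920. Between GDF15-treated and vehicle mice the log2 fold change of Gpd2 was 0.029 (adjusted p = 0.929 from limma), with an interval of 0.918-fold to 1.13-fold. Without the 3 libraries high in Myh7 the values of Gpd2 were 0.37 (adjusted p = 0.0182 from limma) for pair-fed against vehicle mice and -0.30 (adjusted p = 0.0638) for GDF15 against pair-fed mice. The first call held in 12 other settings and without each of the 10 libraries. The second was lost in 4 of 12 other settings and without 9 of the 11 libraries, with adjusted p-values of up to 0.213 (without pair-fed mouse 5). Both calls were lost in a fit chosen after seeing the data, with the log2 sum of 9 slow and oxidative fibre markers as a covariate, where the values were 0.17 (adjusted p = 0.443 from limma) and -0.20 (adjusted p = 0.214).

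Gpd1 (ENSMUSG00000023019.12, chr15:99717515-99725005, plus strand) encodes the cytosolic dehydrogenase that makes glycerol-3-phosphate from dihydroxyacetone phosphate, and had the more abundant RNA of the pair. Its counts were 11048, 9665, 11147, 9690.0 and 9540.4 in vehicle mice, and 12470.1, 10297, 10858, 11452 and 9877 in pair-fed mice. GDF15-treated mice ran from 9172 over 10104 to 11085, and the 3 groups overlapped. On the log2 scale pair-fed minus vehicle mice gave 0.10 (adjusted p = 0.428 from limma) and GDF15 minus pair-fed mice -0.11 (adjusted p = 0.474 from limma). Between GDF15-treated and vehicle mice it was -0.0069 (adjusted p = 0.986 from limma), and its 95% confidence interval ran from 0.908-fold to 1.09-fold. Within a library, Gpd2 had a median of 33.9% of the counts of Gpd1 in vehicle mice (27.7% to 36.2%), 33.8% in GDF15-treated mice (26.8% to 38.7%) and 36.8% in pair-fed mice (34.3% to 41.9%), so that the 3 ranges of the ratio overlapped.

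A list of 12 related genes held Gpd1l, the enzymes and carriers of the malate-aspartate shuttle, and 4 genes outside both shuttles: Ldha and Ldhb of lactate dehydrogenase, glycerol kinase (Gk) and the dicarboxylate carrier Slc25a10. All had a row, and 0 of 12 passed with limma in any comparison, while without the 3 libraries high in Myh7 Ldhb passed for pair-fed against vehicle mice (-0.73, adjusted p = 0.0771). Between pair-fed and vehicle mice 10 of the 12 had a fold change below 0, with a median log2 fold change of -0.14, where the median of all tested genes was 0.0013. The smallest adjusted p-values were those of Got1, the cytosolic aspartate aminotransferase (log2 fold change -0.25, adjusted p = 0.129 from limma), and Slc25a11, the malate and oxoglutarate carrier (-0.18, adjusted p = 0.129). Got1 had a mean of 6506 normalised counts in pair-fed mice, 7591 in GDF15-treated mice and 7725 in vehicle mice.

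In pair-fed mice the RNA of the cytosolic muscle creatine kinase was higher and that of the mitochondrial isoform was lower. Ckm (ENSMUSG00000030399.2, chr7:19404776-19422841, plus strand) encodes the cytosolic muscle isoform, part of which is bound at the M line of the sarcomere. Its normalised counts were 287439.9, 289877, 287630.2, 294630.5 and 300026 in vehicle mice. In pair-fed mice they were 351627, 316778, 311681, 342111 and 303893. The lowest pair-fed mouse lay above the highest vehicle mouse, which made Ckm the gene of the 10 whose groups were apart. GDF15-treated mice ran from 293353 over 307349 to 318147, between the other groups and overlapping both. Ckm rose by 0.15 on the log2 scale in pair-fed against vehicle mice (standard error 0.050, adjusted p = 0.0997 from limma), or 1.11-fold with a 95% confidence interval of 1.04 to 1.20. The call was close to the threshold: it was lost in 7 of 12 other settings and without each of 7 of the 10 libraries, with adjusted p-values of up to 0.222 (without pair-fed mouse 5), and with the marker covariate (0.096, adjusted p = 0.463 from limma). With quantile normalisation the difference was 0, since this setting gives genes of equal rank equal values. Without the 3 libraries high in Myh7 the log2 fold change was 0.20 (adjusted p = 0.0532 from limma). For GDF15 it was -0.091 against pair-fed mice (adjusted p = 0.434 from limma) and 0.063 against vehicle mice (adjusted p = 0.683), although 4 of the 6 GDF15-treated mice lay above every vehicle mouse.

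Ckmt2 (ENSMUSG00000021622.3, chr13:91853387-91876885, minus strand) encodes the sarcomeric mitochondrial isoform, an octamer in the space between the mitochondrial membranes that uses ATP exported by the translocase. Its normalised counts were 17186, 19987, 18492, 18366 and 18979 in vehicle mice. In pair-fed mice they were 11826, 17289.8, 15652, 14743 and 12045. Pair-fed mouse 3 lay above vehicle mouse 1, and the other 4 pair-fed mice lay below every vehicle mouse. GDF15-treated mice spread from 12798 over 17504 to 18725, with 3 of the 6 below every vehicle mouse and 3 among them. Ckmt2 fell by 0.39 on the log2 scale in pair-fed against vehicle mice (standard error 0.11, adjusted p = 0.0565 from limma), or 0.762-fold with a 95% confidence interval of 0.649 to 0.894. The call was lost in 1 of 12 other settings and without each of 5 of the 10 libraries, with adjusted p-values of up to 0.144 (without pair-fed mouse 2). With the marker covariate it was also lost, and the log2 fold change of Ckmt2 shrank to -0.12 (adjusted p = 0.666 from limma). Without the 3 libraries high in Myh7 the log2 fold change was -0.41 (adjusted p = 0.0302 from limma). For GDF15 it was 0.22 against pair-fed mice (adjusted p = 0.391 from limma) and -0.18 against vehicle mice (adjusted p = 0.574), with intervals of 0.997-fold to 1.35-fold and 0.759-fold to 1.03-fold. The coefficient of variation of Ckmt2 was 5.46% among vehicle mice, 15.0% among GDF15-treated mice and 16.4% among pair-fed mice, where counting error alone gives at most 0.817%.

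The ratio of the creatine kinases within a library, which does not depend on how libraries are scaled to each other, separated vehicle from pair-fed mice. Ckmt2 had a median of 6.33% of the counts of Ckm in vehicle mice (5.98% to 6.89%), 5.68% in GDF15-treated mice (4.33% to 6.32%) and 4.31% in pair-fed mice (3.36% to 5.46%). The ranges of vehicle and pair-fed mice did not overlap, and that of GDF15-treated mice overlapped both. The ratio is given as a description, with no test. It is built from Ckm and Ckmt2, which were called in opposite directions, and Ckm was already apart by itself. The separation is therefore not an independent result. How often ratios of other genes separate these groups was not computed.

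**Figure D3:**
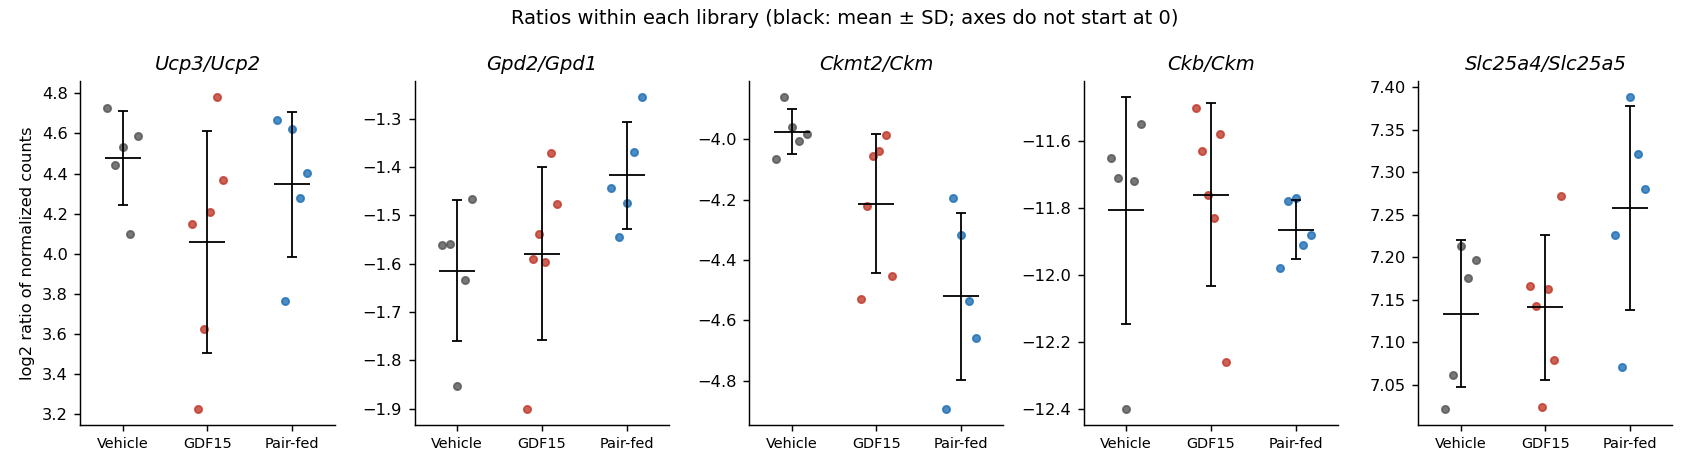
Log2 ratios of normalised counts within each library for 5 pairs of genes, with 1 point per mouse and the mean ± SD of each group in black. Ckmt2/Ckm averages -3.97 in vehicle, -4.21 in GDF15-treated and -4.52 in pair-fed mice, and the groups overlap in the other 4 ratios.

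Ckb (ENSMUSG00000001270.9, chr12:111669361-111672338, minus strand), the brain isoform, had a median of 0.0298% of the counts of Ckm in vehicle mice, 0.0302% in GDF15-treated mice and 0.0266% in pair-fed mice. It had 89.5, 86.4, 53.3, 87.2 and 99.99 normalised counts in vehicle mice, 86.9, 90.1, 89.0, 89.0 and 80.8 in pair-fed mice, and 64.9 to 102 (median 92.3) with GDF15. Its log2 fold changes were 0.095 (adjusted p = 0.795 from limma) for pair-fed against vehicle mice, 0.11 (adjusted p = 0.847) for GDF15 against vehicle mice and 0.014 (adjusted p = 0.983) for GDF15 against pair-fed mice. At this depth, counting error alone gives Ckb a coefficient of variation of 10.5% to 10.9%, and a difference of the size seen in Ckm lies within the 95% confidence interval of Ckb for pair-fed against vehicle mice, 0.857-fold to 1.33-fold, so that it was not detectable. A processed pseudogene, Gm12892, holds 1149 bases at 96.8% identity to Ckb and has no row in the table, so that the split of reads between them is uncertain.

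Slc6a8 (ENSMUSG00000019558.14, chrX:73673150-73682502, plus strand), the transporter through which muscle takes up creatine, had a coefficient of variation of 2.57% to 7.52% within groups. Its counts were 2548, 2474, 2282, 2508 and 2269.7 in vehicle mice, 2532, 2399, 2447, 2512 and 2395 in pair-fed mice, and 2091 to 2568 (median 2333) with GDF15. The log2 fold changes of Slc6a8 were 0.025 (adjusted p = 0.848 from limma) for pair-fed against vehicle mice, -0.055 (adjusted p = 0.755) for GDF15 against vehicle mice and -0.080 (adjusted p = 0.516) for GDF15 against pair-fed mice. The 95% confidence intervals of the 3 comparisons lay within 0.880-fold to 1.10-fold.

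Of 8 further genes, for the kinase Ckmt1, creatine synthesis (Gamt and Gatm), adenylate kinases (Ak1 to Ak4) and AMP deaminase (Ampd1), 7 had a row (Ckmt1 had none) and were tested. In pair-fed against vehicle mice 1 of 7 passed, lower, like 3.17% of all tested genes: Ak3, the adenylate kinase of the mitochondrial matrix, with 939.9 ± 77.2 normalised counts (SD, n = 5) against 1064 ± 46.1 (SD, n = 5), or -0.18 on the log2 scale (adjusted p = 0.0557 from limma). In GDF15-treated against pair-fed mice 1 of 7 passed, lower, like 1.24% of all tested genes: Ampd1, the AMP deaminase of muscle, with 17252 ± 1620.0 (SD, n = 6) against 20896 ± 2510.0 (SD, n = 5), or -0.27 on the log2 scale (adjusted p = 0.0821 from limma). Against vehicle mice, 0 of 7 passed with GDF15, and all 7 had a fold change below 0, with a median of -0.076. The median of all tested genes in this comparison was 0.00081. Gatm also passed for pair-fed against vehicle mice when the 3 libraries high in Myh7 were left out (-0.94, adjusted p = 0.0631 from limma).

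The adenine nucleotide translocases did not pass the test in any comparison. Slc25a4 (ENSMUSG00000031633.4, chr8:46206797-46211284, minus strand), the isoform of heart and skeletal muscle, had 56592, 58345, 59025, 57105 and 55184 normalised counts in vehicle mice. It had 53297, 57417, 56897, 55789 and 49008 in pair-fed mice, and 49312 to 59073 (median 56986) with GDF15. The log2 fold changes were -0.074 (adjusted p = 0.501 from limma) for pair-fed against vehicle mice, -0.036 (adjusted p = 0.858) for GDF15 against vehicle mice and 0.038 (adjusted p = 0.794) for GDF15 against pair-fed mice. The 95% confidence intervals for Slc25a4 lay within 0.879-fold to 1.11-fold.

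Slc25a5 (ENSMUSG00000016319.3, chrX:36795651-36798807, plus strand), the widely expressed isoform, had 436, 437, 398, 395 and 376 normalised counts in vehicle mice and 356, 427, 339, 349 and 315 in pair-fed mice. In 4 of 5 pair-fed mice it lay below every vehicle mouse, and pair-fed mouse 3 lay among the vehicle mice. The log2 fold change was -0.20 (adjusted p = 0.221 from limma), and its 95% confidence interval ran from 0.770-fold to 0.989-fold. Without pair-fed mouse 3 it was -0.26 (adjusted p = 0.0691 from limma), and over 12 other settings and the left-out libraries the adjusted p-value of Slc25a5 ran from 0.0691 to 0.409, and it was 0.894 with the marker covariate (-0.055). GDF15-treated mice had 343 to 449 (median 399), which differed by 0.15 on the log2 scale (adjusted p = 0.440 from limma) from pair-fed mice and by -0.043 (adjusted p = 0.900) from vehicle mice. The sequence of Slc25a5 recurs at 90% identity or more over at least 100 bases in 8 other annotated genes, 7 of them pseudogenes, and none of the 8 has a row, so that its counts are uncertain.

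The uncoupling proteins did not pass the test in any comparison. Ucp3 (ENSMUSG00000032942.14, chr7:100472990-100486432, plus strand), an inner-membrane carrier known to rise in muscle with fasting and fatty acid supply, had 3004, 2723, 3017, 2545 and 2494 normalised counts in vehicle mice. It had 1887, 2048, 3605, 2471.5 and 2772 in pair-fed mice. The GDF15-treated mice had 2077, 1713, 1687, 3183, 2709 and 2618, so that 3 of them lay below every vehicle mouse and 1 above. The coefficient of variation of Ucp3 was 8.95% among vehicle mice, 25.8% among GDF15-treated mice and 26.7% among pair-fed mice, with at most 2.16% from counting. Its log2 fold changes were -0.28 for GDF15 against vehicle mice (adjusted p = 0.574 from limma), -0.14 for pair-fed against vehicle mice (adjusted p = 0.716) and -0.13 for GDF15 against pair-fed mice (adjusted p = 0.773). The 95% confidence interval of the first ran from 0.648-fold to 1.05-fold, so that a lower, an equal and a slightly higher level with GDF15 are all within it. With a library left out, the second ran from -0.28 to -0.043 and the third from -0.23 to -0.0012, and neither passed.

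Ucp2 (ENSMUSG00000033685.13, chr7:100493337-100502020, plus strand), which lies downstream of Ucp3 on the same strand and is known from leukocytes and many other cells, had 113, 125, 130, 148 and 104 normalised counts in vehicle mice. It had 74.4, 151, 146, 127 and 131 in pair-fed mice and 98.4 to 183 (median 132) with GDF15. The log2 fold changes of Ucp2 were 0.14 for GDF15 against vehicle mice (adjusted p = 0.839 from limma), 0.15 for GDF15 against pair-fed mice (adjusted p = 0.762) and -0.011 for pair-fed against vehicle mice (adjusted p = 0.984). Counting error alone gives Ucp2 a coefficient of variation of 8.70% to 8.81%. Pair-fed mouse 2 carried the lowest value, and without it the last was 0.17 (adjusted p = 0.661 from limma). Markers of leukocytes, all 8 of them detected in every library, summed to 521 to 899 normalised counts in vehicle mice, 510 to 903 with GDF15 and 368 to 813 in pair-fed mice. Of these Ptprc was lower in pair-fed than in vehicle mice (log2 fold change -0.97, adjusted p = 0.0634 from limma), a call that was lost without the 3 libraries high in Myh7 (-0.80, adjusted p = 0.225), and their part in the level of Ucp2 was not tested.

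**Figure D4:**
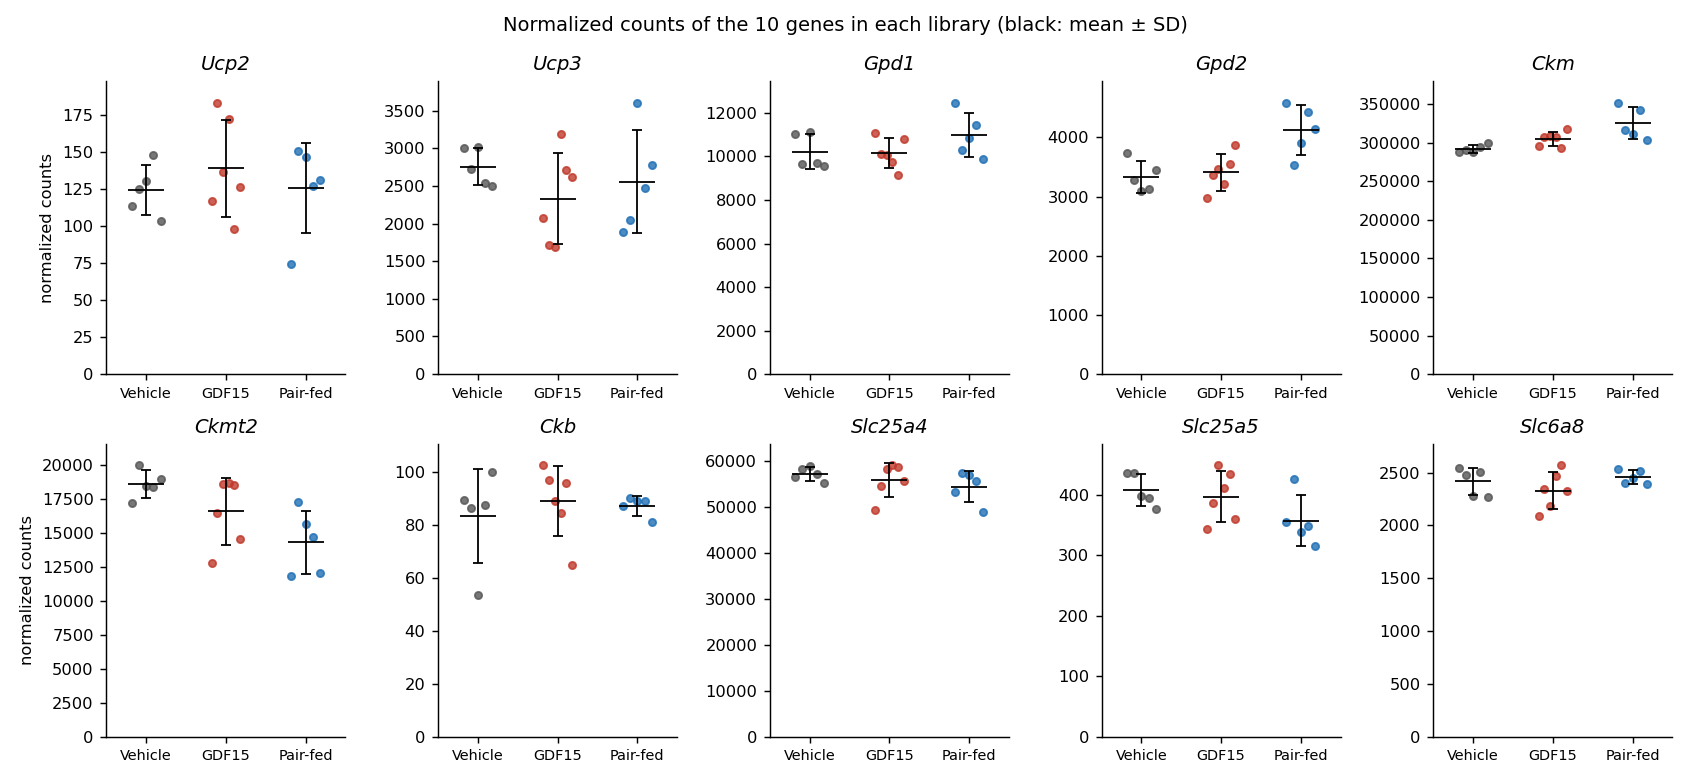
Normalised counts of the 10 genes in each library, on axes that start at 0, with 1 point per mouse and the mean ± SD of each group in black. Gpd2 and Ckm lie highest and Ckmt2 lowest in pair-fed mice, with means of 4121, 325218 and 14311, and the groups overlap in every panel except for vehicle and pair-fed mice in that of Ckm.

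Among other uncoupling proteins, inner-membrane carriers and the outer-membrane channels Vdac1, Vdac2 and Vdac3, 10 of 12 had a row (Ucp1 and Slc25a31 had none), and 1 of 10 passed for pair-fed against vehicle mice, higher like 3.2% of all tested genes, and 0 of 10 with limma in the other comparisons. Slc25a25, a calcium-regulated carrier of ATP-magnesium and phosphate, rose in pair-fed against vehicle mice by 1.37 on the log2 scale (adjusted p = 0.0235 from limma). It had 131 to 285 normalised counts in vehicle mice, 372 to 811 in pair-fed mice and 219.7 to 790.3 with GDF15, and its log2 fold change between GDF15-treated and vehicle mice was 1.19 (adjusted p = 0.105 from limma). The median log2 fold change of these 10 genes was -0.0031 for pair-fed against vehicle mice.

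Genes of fatty acid use and PPAR response stand here because Ucp3 is itself known as a PPAR target. All 16 had a row, 5 of 16 passed with limma for pair-fed against vehicle mice, all lower (3.17% of all tested genes passed in this direction), and the other 11 also had a fold change below 0. The 5 were Ppara, a nuclear receptor that binds fatty acids, with -0.84 on the log2 scale (adjusted p = 0.0409 from limma), Slc25a20, the carnitine carrier, with -0.37 (0.0534), Fabp3, the fatty acid binding protein of muscle, with -0.65 (0.0667), Acadl, an acyl-CoA dehydrogenase, with -0.36 (0.0913), and Cd36, the fatty acid translocase, with -0.48 (0.0936). The other nuclear receptors of the list, Ppard (-0.12, adjusted p = 0.363 from limma) and Esrra (-0.095, adjusted p = 0.406), did not pass. Hadha, of the mitochondrial trifunctional protein, also passed without the 3 libraries high in Myh7 (-0.37, adjusted p = 0.0860 from limma). With GDF15, 0 of 16 passed against either group, with a median log2 fold change of -0.23 against vehicle and of 0.13 against pair-fed mice.

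Some markers of fibre type differed between pair-fed and vehicle mice. Of 9 fast fibre markers 3 were higher in pair-fed than in vehicle mice, Actn3 (log2 fold change 0.33, adjusted p = 0.0167 from limma), Pvalb (0.27, 0.0538) and Atp2a1 (0.20, 0.0402), and Myh1, the myosin of type IIx fibres, was lower (-0.68, 0.0123), where 3.2% of all tested genes were called higher and 3.17% lower. With GDF15, Actn3 was lower than with pair-feeding (-0.27, adjusted p = 0.0678 from limma), and the other 8 fast fibre markers did not pass against either group, except that Myh1 was higher than in pair-fed mice without the 3 libraries high in Myh7 (0.55, adjusted p = 0.0686). Of 9 slow and oxidative markers, Mb, the oxygen store myoglobin, was lower (-0.50, adjusted p = 0.0515 from limma), and the other 8 did not pass. The list went both ways: 6 of the 9 had a fold change above 0, among them Myh7 (0.80, adjusted p = 0.661 from limma) and Tnnc1 (0.52, adjusted p = 0.554), and the median log2 fold change was 0.29. Without the 3 libraries high in Myh7, of which 2 are from pair-fed mice, 0 of the 9 were above 0, with a median of -0.55, and Mb was the gene that passed (-0.55, adjusted p = 0.0229 from limma). The 9 slow and oxidative markers, of which Myh7 is present in all libraries, summed to 67565 to 85351 normalised counts in vehicle mice, 48082 to 78556 with GDF15 and 35195 to 75001 in pair-fed mice. Mb and Myh2, the myosin of type IIa fibres, made up 94.1% to 98.1% of this sum in each library, so that it follows these genes and hardly the other 7. Among the libraries, Ckmt2 and Mb were both lowest in the libraries of pair-fed mouse 2, pair-fed mouse 6 and mouse 1 of the GDF15 group, and Ckmt2 was also low in GDF15-treated mouse 6 and pair-fed mouse 5. Among markers of other cells, Kdr of endothelium was lower than in vehicle mice both with GDF15 (-0.66, adjusted p = 0.00116 from limma) and with pair-feeding (-0.50, 0.00473), Cnn1 of smooth muscle was lower in pair-fed mice (-1.47, 0.0523), Mbp of Schwann cells was lower in pair-fed than in vehicle mice without the 3 libraries high in Myh7 (-0.91, 0.0390) and did not pass with them, and their part in the results for the 10 genes was not tested. With the log2 of this sum as the covariate, all 4 calls of the 10 genes were lost, with the values given beside each gene. Since the covariate itself differs between the groups, a change within fibres and a change in the share of fibre types cannot be told apart.

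**Figure D5:**
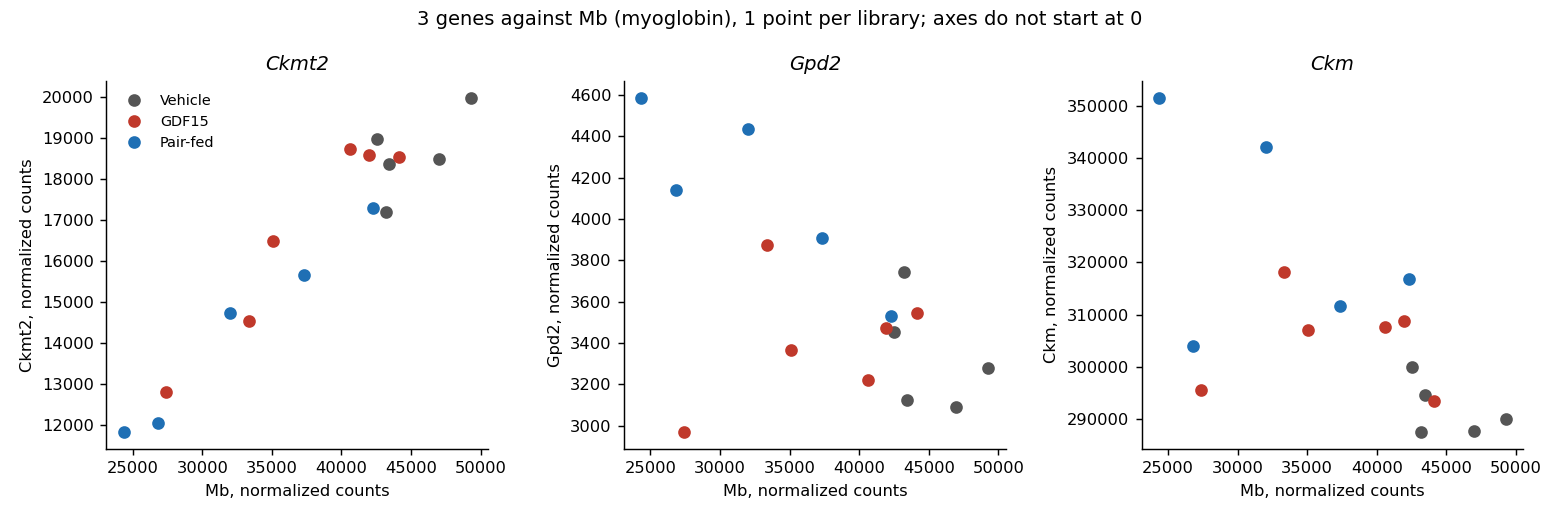
Normalised counts of Ckmt2, Gpd2 and Ckm plotted against those of Mb (myoglobin), with 1 point per library coloured by group and axes that do not start at 0. Ckmt2 is high where Mb is high among GDF15-treated and pair-fed mice, and less closely so among vehicle mice. Vehicle mouse 5 has the lowest Mb of its group (42537) and a Ckmt2 of 18979. The pair-fed mice with the highest Gpd2, 4586 and 4436, lie at low Mb, as does GDF15-treated mouse 1 with the lowest Gpd2 of 2968.

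Genes with the profile most like that of each called gene were sought over the 16 libraries, as the smallest root mean square difference of values standardised per gene, for which the median of all tested genes was 1.37 or 1.38. For Ckmt2 they were Phyh (0.196), a peroxisomal enzyme that starts the breakdown of phytanic acid, Acadvl (0.229), the acyl-CoA dehydrogenase of very long chains, and Mb (0.240). For Ckm they were Aldoa (0.401), the aldolase of muscle, Rfc4 (0.416), a subunit of the clamp loader of DNA replication, and Oaz1 (0.429), an inhibitor of polyamine synthesis. For Gpd2 they were Eef1aknmt (0.476), Tigar (0.496), a regulator of glycolysis, and Pcmt1 (0.497), a protein repair methyltransferase. The genes nearest to Ckmt2 were closer to it than those of Ckm and Gpd2 were to theirs.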

How the data were processed

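Total RNA of 16 tibialis anterior muscles was made into libraries with a directional kit and sequenced by the authors in read pairs, trimmed with Trim Galore, quantified with Salmon and scaled with DESeq2, with mm10 named as the build in the submitters' processing notes. Versions, annotation and strand setting are not given in the sources used here. The authors deposited log2 values, from 7.32 to 19.96, that have the shape of a variance-stabilised count. These were transformed back to normalised counts with its closed-form inverse, after which 87.9% to 96.7% of low values in genes with a single transcript were within 0.1 reads of whole multiples of 1 step per library, and only 20.0% to 26.9% in genes with more than 4 transcripts. The summed counts divided by this step gave the approximate depth, and no count test was run. A gene with few reads carries more counting error, as stated for Ckb and Ucp2.

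Genes with a mean of at least 10 normalised counts (11841) were tested on log2(normalised count + 1) with limma 3.58.1 in R 4.3.3 (trended empirical Bayes variances). The fit held the 3 groups and no covariate, with two-sided tests and Benjamini-Hochberg adjustment over all tested genes, and called at an adjusted p-value under 0.1. Fold changes are on this scale, which understates changes of low genes. The script was tested on simulated data. Python 3.11.15, pandas 2.3.3, numpy 2.4.6 and matplotlib 3.10.9 were used for values and plots, and blastn 2.17.0 for shared sequence. Positions and lengths are those of GENCODE vM21 (GRCm38). Groups and mouse numbers come from the labels, with pair-fed mice numbered 2 to 6. The labels give no batches, and p-values measure the spread between these mice.

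The 10 genes, the lists and the tests were chosen with earlier results of these data known. Named are all 10 genes, of each list of related genes those past an adjusted p-value of 0.1 in any comparison (at most 5, and otherwise the 2 with the smallest), and the 3 nearest genes of each called gene. Cell markers are named where they passed, chosen after their values were seen. Ratios are descriptions without a test. Exons of Ucp2, Gpd1, Gpd2, Ckm and Ckmt2 overlap those of a gene on the opposite strand (Dnajb13, Gm16537, A930012O16Rik, A930016O22Rik and 1700119I11Rik), whose reads can be told apart only if strand was used. Alternatives tried were other pseudocounts (0.5 and 8), no minimum or one of 50, the deposited values, other scalings, no trend, library weights, fits of 2 groups, the mouse number as a block, depth as a covariate, a threshold of 0.05 and each library left out.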

Additional observations from a re-analysis of the deposited data

Results flagged for a closer look

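In 45 groups of values (the 10 genes and 5 ratios in 3 groups), 3 had a library whose gap to its nearest neighbour exceeded the 95% critical value of Dixon's test, where chance gives about 1 in 20. Ucp2 had 74.4 normalised counts in pair-fed mouse 2, against 127 to 151 in the other 4 pair-fed mice. Ckb had 53.3 normalised counts in vehicle mouse 3, against 86.4 to 99.99 in the other 4 vehicle mice. The log2 ratio of Ckb to Ckm was -12.4 in the same mouse, against -11.72 to -11.55 in the others, and rests on the same Ckb value. Without vehicle mouse 3 the log2 fold change of Ckb turned from 0.11 to -0.042 for GDF15 against vehicle mice and from 0.095 to -0.056 for pair-fed against vehicle mice, neither of them past the threshold.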

How the results depend on the processing

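Of the fold changes of the 10 genes, 680 values under other settings and left-out libraries were compared with those reported, of which 621 kept their direction and their side of the threshold, 33 lost a call, 1 gained one and 25 changed sign. Of 60 values in the 2 fits added after seeing the data, 46 kept both, 4 lost a call and 10 changed sign. The 4 were the calls of Gpd2 (both), Ckm and Ckmt2, lost with the marker covariate. In the other settings Gpd2 kept its call for pair-fed against vehicle mice (adjusted p = 0.0111 to 0.0995 from limma). For GDF15 against pair-fed mice Gpd2 was not called without the trend (0.157), with 2 groups (0.149), with the depth covariate (0.120) or without 9 of 11 libraries (0.103 to 0.213, all except GDF15-treated mouse 6 and pair-fed mouse 3). Ckm was not called with a pseudocount of 8 (0.112), no minimum (0.167), no trend (0.106), 2 groups (0.164), the depth covariate (0.111), quantile normalisation (where its difference is 0) or without any of vehicle mice 1 to 5 and pair-fed mice 2 and 5 (0.138 to 0.222). Ckmt2 was not called without the trend (0.108) or without vehicle mouse 2, 3 or 5 or pair-fed mouse 2 or 6 (0.102 to 0.144). At a threshold of 0.05 the calls of Ckm (0.0997), Ckmt2 (0.0565) and Gpd2 for GDF15 against pair-fed mice (0.0821) were lost.

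Correlations of the deviations of same-numbered mice ran from -0.0994 to 0.0665. The labels do not say whether mice of the same number were paired, and such correlations cannot settle it. With the mouse number as a replicate block Gpd2 for GDF15 against pair-fed mice (-0.27, adjusted p = 0.105 from limma) and Ckm (0.15, adjusted p = 0.207) were not called, 38 genes in place of 91 passed for GDF15 against vehicle mice (20 in place of 36 with the fold threshold), Ckb was -0.027 for GDF15 against pair-fed mice and Gpd1 0.0017 for GDF15 against vehicle mice.

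Signs changed only in fold changes that were not called. Ucp2 for pair-fed against vehicle mice was 0.0013 on the deposited values, 0.0048 with quantile normalisation, 0.0014 with library weights and -0.086 to 0.17 with a library left out. Gpd1 for GDF15 against vehicle mice was 0.0013 with equal medians, 0.0031 with library weights and -0.032 to 0.025 with a library left out. With the depth covariate Slc25a4 was -0.0027 for GDF15 against pair-fed mice and Gpd2 -0.012 for GDF15 against vehicle mice. With a library left out, Gpd2 (-0.0092 to 0.071), Ckb (-0.042 to 0.20) and Slc25a4 (-0.052 to 0.00026) changed sign for GDF15 against vehicle mice, Ckb for pair-fed against vehicle mice (-0.056 to 0.17), and Ucp2 (-0.027 to 0.24) and Ckb (-0.029 to 0.10) for GDF15 against pair-fed mice.

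Over all tested genes, 257, 91 and 754 genes passed for GDF15 against pair-fed mice, for GDF15 against vehicle mice and for pair-fed against vehicle mice, in this order, and 33, 36 and 97 with the fold threshold. At an adjusted p-value of 0.05 these were 92, 38 and 402, and 18, 23 and 56. On the deposited values, where differences of low genes are compressed, the fold threshold left 7, 9 and 17. Without the trend 115 and 48 passed in the first and second comparison, with 2 groups 122 in the first, and with the depth covariate 109 and 32, or 19 in the second with the fold threshold. With a library left out the counts ran from 66 to 372, 38 to 90 and 406 to 1051, and from 15 to 62, 18 to 37 and 60 to 158, lowest without pair-fed mouse 5 or vehicle mouse 5 and highest without pair-fed mouse 3 or GDF15-treated mouse 3. In the fits added after seeing the data, the slow and oxidative marker covariate gave 86 genes for GDF15 against pair-fed mice and 94 for pair-fed against vehicle mice (14 and 23 with the fold threshold), and sign changes of Slc25a4 to -0.0074 (GDF15 against pair-fed mice), of Gpd2 to -0.035, Slc25a4 to 0.0063 and Slc25a5 to 0.025 (GDF15 against vehicle mice), and of Ucp2 to 0.23, Ucp3 to 0.038, Gpd1 to -0.0046 and Slc25a4 to 0.014 (pair-fed against vehicle mice). Without the 3 libraries high in Myh7, 61 genes passed both thresholds for GDF15 against pair-fed mice, Ckb was -0.049 in that comparison and Slc25a4 0.00026 for GDF15 against vehicle mice. The causes were not tested.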
